A study of Mus musculus with 38 samples.

Results

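The comparison was between the change that phenobarbital feeding made in mouse liver after 30 days and the change it made after 4 days. For each gene the day 30 change (30DayPhenobarb minus 30DayPhenobarbControl) had the day 4 change (4DayPhenobarb minus 4DayPhenobarbControl) subtracted from it, and the result is called the difference below. These 4 groups hold 5 arrays each, so 20 of the 38 arrays in the series were used and were fitted alone. All 4 groups were male CD-1 mice aged 6 to 8 weeks. The mice ate control feed or feed with 850 ppm phenobarbital, a mean intake of 97.2 ± 5.9 mg/kg/day whose error type the labels do not define. Each day had its own controls, so the day 4 change and the day 30 change share no array. The array labels call the members of a group biological replicates without saying what separates them, so the p-values below measure the spread between these arrays.

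Phenobarbital is a barbiturate that activates the nuclear receptor CAR in hepatocytes. CAR, together with the related receptor PXR, drives transcription of cytochrome P450 enzymes of the Cyp2b, Cyp2c and Cyp3a families and of enzymes that conjugate and hydrolyse foreign compounds. In rodents, phenobarbital feeding is also known for an early wave of hepatocyte DNA synthesis and mitosis that subsides while feeding continues, whereas enzyme induction lasts as long as the exposure. The genes below are ordered by these roles: enzymes induced on both days, genes whose change was larger or smaller on day 30, cell cycle genes, and then other liver functions and cell types.

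Levels are given as log2 of the normalized array intensity plus 16, so 4.00 is the lowest value possible, and a difference of 1 on this scale is a doubling for genes far above the 16. A level of 5.80, the 95th percentile of the mean levels of 34 olfactory receptor genes, was taken as background. Where every array of 1 group lay below background, the fold is a lower bound and is written "at least". A gene is called where the adjusted p from limma (Benjamini-Hochberg over 17433 genes) was under 0.05. Liver is a mixed tissue, and in such samples fewer cells of a type and less RNA per cell cannot be told apart.

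The arrays were alike in overall quality, with a correlation to the rest of their own group of 0.966 to 0.982. Several stood apart in a few genes. Day 4 control arrays 1 and 2 were high in acute phase genes, with Lcn2 at 11.9 and 12.5 against 6.6 to 7.0 in the other day 4 controls. Day 4 control array 1 was also high in exocrine pancreas genes, and day 30 control array 5 was high in adipocyte genes. Day 30 phenobarbital array 5 was high in both mitotic and interferon responsive genes. Leaving out the 2 acute phase controls, the adipocyte array or day 30 phenobarbital array 5 changed several calls and list counts. Many of those of the genes and lists below are given both ways, but not all.

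Most genes called on either day had a change of the same sign on the other day, but only a minority of the day 4 calls were called again on day 30. On day 4, 455 genes were called higher with phenobarbital (2.61% of those tested) and 321 lower (1.84%). On day 30, 194 were called higher (1.11%) and 113 lower (0.648%). The higher calls of the 2 days shared 122 genes, which is 26.8% of the day 4 list and 62.9% of the day 30 list, and the lower calls shared 41, which is 12.8% and 36.3%. None of the 163 genes called on both days changed in opposite directions. Of the 776 genes called on day 4, 723 (93.2%) had a day 30 change of the same sign, and of the 307 called on day 30, 288 (93.8%) had a day 4 change of the same sign. The same sign with an unadjusted limma p under 0.05 on the other day was found for 405 (52.2%) and 223 (72.6%). Over all genes, 14% had such a p on day 30 and 19.1% on day 4, whatever the sign. The Pearson correlation of the 2 changes across all genes was 0.45. Of the day 4 calls, 86.6% of the higher and 92.2% of the lower ones had a smaller change on day 30. Of the day 30 calls, 67% of the higher and 82.3% of the lower ones had a smaller change on day 4. A call picks genes partly for a large change on that day, so these shares alone do not show a weaker response on the other day.

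The splits between higher and lower calls depended on the scaling of the arrays. With each array centred on its median, 289 of the 461 genes called on day 4 were higher, and 387 were higher and 51 lower on day 30. With the values as deposited, 204 were higher and 43 lower on day 4, and 117 were higher and 25 lower on day 30. Single arrays also moved the totals: the 776 genes of day 4 became 450 without control array 1 and 426 without phenobarbital array 3. On day 30 the higher calls fell from 194 to 118, 126 or 127 without phenobarbital array 2, 3 or 4, and to 127 without control array 2. The lower calls of day 30 fell from 113 to 64, 65 or 59 without the same phenobarbital arrays, and to 71, 67 or 69 without control array 1, 2 or 4.

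The size of the change was also similar for the shared genes. Among the 163 called on both days, 79 had the larger change on day 30, and the median ratio of the day 30 to the day 4 change was 0.989, with an interquartile range of 0.854 to 1.167. Both changes of a gene had to pass the test for it to enter this group, which leaves out genes whose change was much smaller on one day. The 95% interval of the difference had a median half-width of 0.272 for them. It was 0.382 over all genes and 0.324 for genes with a group mean above background. Being called on both days favours genes with a small error, so a narrower interval follows in part from the choice.

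The test of the difference itself called 1 gene, the monooxygenase gene Moxd1, which was higher (0.00574% of 17433). At an unadjusted p under 0.05 the difference was positive for 500 genes (2.87%) and negative for 697 (4.00%). Whatever its p, the difference was positive for 48.6% of all genes and negative for 51.4%, with a median of −0.01, and these values are the base for the list counts below. Other genes joined it when 1 array was left out: 4 were called without day 4 control array 5, 3 without day 4 phenobarbital array 2, and 2 without day 4 control array 2 or day 30 phenobarbital array 1. Hence the counts of genes called on day 4 and not on day 30, 613, or on day 30 and not on day 4, 144, are not counts of genes shown to differ between the days. Of the 613, 560 (91.4%) kept the sign of their change on day 30, and 228 (37.2%) had a difference with an unadjusted p under 0.05. Of the 144, 125 (86.8%) had the same sign on day 4 and 66 (45.8%) had such a difference. Genes called on a single day were picked partly for a large change on that day, so their change on the other day tends to be smaller by the choice alone.

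**Figure D1:**
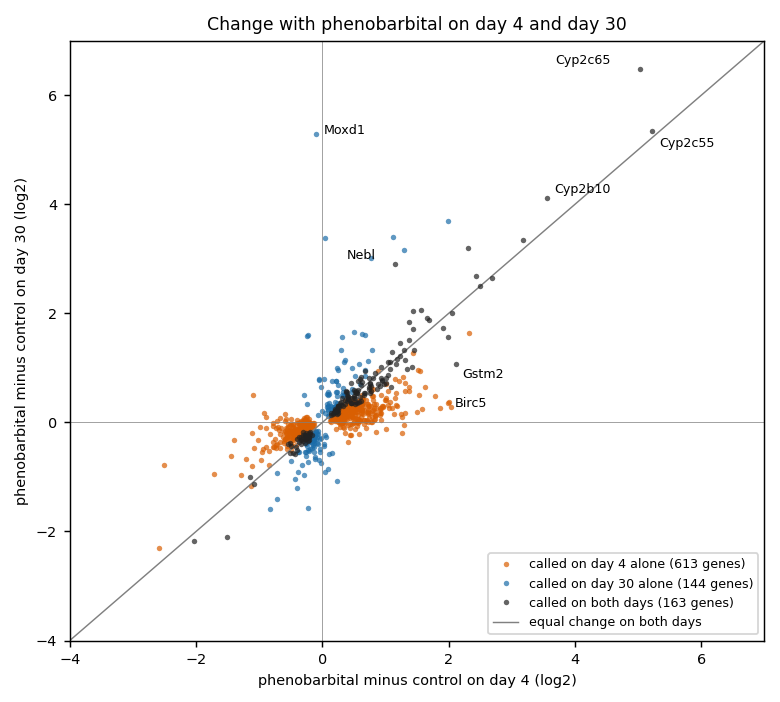
Each point is 1 gene called on at least 1 day, with the phenobarbital minus control change on day 4 (x axis, log2) against that on day 30 (y axis, log2), coloured by the day of the call; the grey diagonal marks equal changes. The 163 genes called on both days (black) lie along the diagonal, Moxd1 sits at −0.10 on day 4 and 5.29 on day 30, and Birc5 lies below the diagonal at 1.998 on day 4 and 0.38 on day 30.

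The drug-metabolizing enzymes were prominent among the genes called on both days. Of 113 measured genes in the lists of induced enzymes and transporters (Cyp2b, Cyp2c and Cyp3a enzymes, other CAR and PXR responsive genes, glutathione S-transferases, UDP-glucuronosyltransferases and sulfotransferases, carboxylesterases, heme genes and NRF2 responsive genes), 33 were called higher on day 4 and 25 on day 30. The called-lower count was 1 on each day. Over all genes tested, 2.61% were called higher on day 4 and 1.11% on day 30. The 163 genes called on both days were 0.935% of those tested. For the 19 called higher on both days, the day 30 change was 0.504 to 1.39 times the day 4 change, with a median of 1.02. The ratio was above 1 for 11 and below 1 for 8. Both changes had to be called here too, which leaves out genes whose change was much smaller on 1 day. The 95% interval of the difference left out 0 for 4 of the 19: Cyp2c65, Gstm2, Ugt2b34 and Ces2a. All 14 genes called higher on day 4 alone had a positive change on day 30 too.

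Cyp2b10, the P450 most used as a readout of CAR activation, was at 9.55, 9.41, 9.86, 9.17 and 9.89 in day 4 controls and at 13.14, 13.12, 13.21, 13.12 and 13.09 with phenobarbital. On day 30 the controls were at 8.71, 8.64, 7.97, 9.49 and 9.49 and the phenobarbital arrays at 12.99, 13.10, 13.00, 12.91 and 12.87. The 10 treated arrays lay between 12.87 and 13.21 on both days and did not overlap the controls, which varied more. The change was 3.56 (SE 0.21), or 11.8-fold, on day 4 and 4.11 (SE 0.21), or 17.3-fold, on day 30, both called. The difference of 0.56 had a 95% interval of −0.08 to 1.19 and was not called (limma, adjusted p = 0.760).

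Cyp2c55, a P450 that oxidizes arachidonic acid, had the largest change of the genes called on both days, together with Cyp2c65. Its control arrays read 7.20, 8.15, 7.83, 7.26 and 7.41 on day 4 and 7.39, 7.07, 7.23, 6.74 and 7.23 on day 30. Its phenobarbital arrays read 12.75, 12.74, 13.03, 12.64 and 12.80 on day 4 and 12.33, 12.56, 12.70, 12.35 and 12.44 on day 30. The groups were far apart on both days, 37.3-fold on day 4 and 40.6-fold on day 30. The difference was 0.12, with a 95% interval of −0.34 to 0.58.

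The interval of the difference also included 0 for other induced genes. Gstm3, a mu class glutathione S-transferase, was 3.24-fold higher on day 4 and 3.66-fold higher on day 30, with a difference of 0.17 (95% interval −0.16 to 0.51). Cyp2c37, an arachidonic acid hydroxylase, was 4.92-fold and 9.20-fold higher, with a difference of 0.90 (−0.15 to 1.96). Abcc3, an efflux pump for glucuronides on the blood side of the hepatocyte, was 1.93-fold and 1.70-fold higher (difference −0.19, −0.54 to 0.17). Ahr, the dioxin receptor, was 1.91-fold and 2.01-fold higher (0.07, −0.24 to 0.39). Outside the enzyme lists, Cyp2g1, a P450 best known from olfactory tissue, was 6.46-fold and 6.25-fold higher, and the serine protease gene Prss8 4.14-fold and 4.00-fold. Nsl1, which encodes a kinetochore protein, was at least 3.35-fold and at least 3.67-fold higher.

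Genes that were lower on both days had smaller changes. Rdh16f2, of the retinol dehydrogenase family, read 11.42, 11.08, 10.76, 10.59 and 11.08 in day 4 controls against 9.11, 9.08, 9.69, 9.35 and 10.20 with phenobarbital. On day 30 it read 10.98, 11.11, 9.61, 11.02 and 10.07 in controls against 8.47, 8.84, 8.28, 8.56 and 8.10. All 10 treated arrays lay below their own day's controls, 2.83-fold on day 4 and 4.31-fold on day 30, with a difference of −0.60 (95% interval −1.42 to 0.21). Nrp1, a co-receptor for VEGF and semaphorins, was 1.43-fold and 1.48-fold lower, and its day 4 change of −0.50 was not called without the 2 acute phase controls. Wdr5, a subunit of histone methyltransferase complexes, was 1.46-fold and 1.31-fold lower. Camkk2, a kinase upstream of AMPK, was 1.38-fold and 1.48-fold lower, and its day 4 change of −0.39 without those controls was not called.

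**Figure D2:**
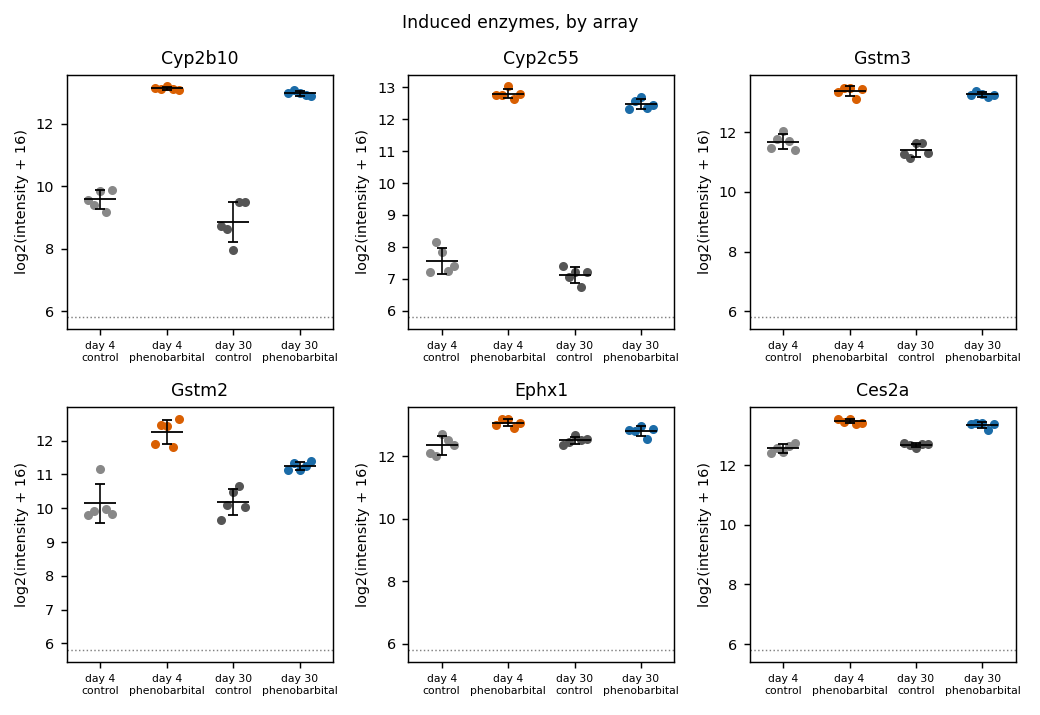
Level of 6 induced genes in each array (y axis, log2 of intensity plus 16) for the 4 groups (x axis); points are single arrays, lines and bars are the mean ± SD of 5 arrays, and the dotted line is the background level of 5.80. Cyp2b10, Cyp2c55 and Gstm3 reached similar levels on both days, whereas the treated arrays of Gstm2 were at 11.82 to 12.65 on day 4 and 11.12 to 11.39 on day 30.

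A few induced enzymes had a smaller change on day 30, none of them called in the difference. Gstm2, another mu class glutathione S-transferase, read 9.81, 9.93, 11.17, 9.97 and 9.84 in day 4 controls and 11.91, 12.47, 12.44, 11.82 and 12.65 with phenobarbital. On day 30 it read 9.66, 10.10, 10.47, 10.65 and 10.04 in controls and 11.12, 11.35, 11.13, 11.26 and 11.39 with phenobarbital. The controls overlapped between days, and every treated array of day 30 was below every treated array of day 4. The change was 4.34-fold on day 4 and 2.10-fold on day 30, both called, and the difference was −1.05 (SE 0.33; limma, adjusted p = 0.621). Without the adipocyte control array the day 30 change was 1.04 and was not called.

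Ephx1, microsomal epoxide hydrolase, was 1.66-fold higher on day 4, and its day 30 change of 0.29 was not called (difference −0.44, 95% interval −0.78 to −0.10, and −0.24 without the 2 acute phase controls). Srxn1, sulfiredoxin, an NRF2 target, was 1.80-fold higher on day 4 and its day 30 change of 0.34 was not called (difference −0.50, −0.85 to −0.15), although its probe set of largest variance gave an uncalled day 4 change of −0.49. Ces2a, a carboxylesterase, was 1.88-fold and 1.59-fold higher, both called (difference −0.24, −0.43 to −0.06). These intervals are single-gene intervals from limma and are not adjusted for the 17433 genes. Of 10 carboxylesterase genes, all 10 had a negative difference, against 51.4% of all genes, with a median of −0.17 against −0.01. With median-centred arrays 2 were positive, without the 2 acute phase controls 3 were, and 1 of the 10 had an unadjusted p under 0.05.

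In the other enzyme lists the differences went in both directions. The calls below compare with 2.61% of all genes called higher and 1.84% lower on day 4. On day 30 these shares were 1.11% and 0.648%. The 19 Cyp2b, Cyp2c and Cyp3a genes had a median difference of 0.16, with 13 positive (48.6% over all genes) and 6 negative, 6 called higher on day 4 and 8 on day 30, with 1 lower on day 30. The list of 20 further genes responsive to CAR or PXR had a median of −0.02, which was positive with median-centred arrays and without the 2 acute phase controls, with 7 called higher on day 4 and 8 on day 30. These counts were 8 and 9 without the adipocyte array, and 6 and 7 without day 30 phenobarbital array 5. Without the 2 acute phase controls 6 were called higher and 1 lower on day 4. The 20 glutathione S-transferases had a median of −0.10, with 9 called higher on day 4 and 5 on day 30. Leaving out the 2 day 4 controls with high acute phase genes turned that median to 0.03 and left 5 called higher on each day. Of the 20 UDP-glucuronosyltransferases and sulfotransferases, 6 were called higher and 1 lower on day 4 and 3 higher on day 30; without the same 2 controls 3 were called higher on each day, and without the adipocyte array 5 were on day 30. Of the 15 NRF2 responsive genes, 2 were called higher on day 4 and 0 on day 30, against 1 and 0 without the acute phase controls and 3 and 1 without the adipocyte array.

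Moxd1 encodes a copper-dependent monooxygenase related to dopamine beta-hydroxylase, and it is in the list of male-biased liver genes. It was read by a single probe set. It lay between 4.00 and 4.70 in all 15 arrays of the day 4 groups and the day 30 controls, below background. In the 5 livers fed phenobarbital for 30 days it was at 8.52, 8.18, 10.12, 11.09 and 9.16. Their intensities as deposited were 367, 261, 1135, 2144 and 635, against −12 to 10 in the others. The groups did not overlap, and the treated arrays differed widely among themselves.

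The day 30 change of Moxd1 was 5.29 (SE 0.38), at least 12.2-fold, and its day 4 change was −0.10 (SE 0.38). The difference was 5.39 (SE 0.54, 95% interval 4.26 to 6.52; limma, adjusted p = 1.2e-04). It lay between 4.97 and 5.70 with any single array left out. It was called under every alternative tried except the fit to all 38 arrays of the series, where it was 5.06 with an adjusted p of 0.310 (range over the 34 alternatives 5.64e-06 to 0.310).

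Nebl, the actin-binding protein nebulette, was called on both days and had the next lowest p, without passing the test of the difference. Its day 4 controls read 4.00 to 4.64 and its day 30 controls 4.19 to 4.64, all below background. With phenobarbital it read 5.60, 6.00, 6.20, 4.73 and 5.42 on day 4 and 6.86, 7.75, 7.18, 7.28 and 7.40 on day 30. Every day 30 treated array lay above every day 4 treated array. The change was 1.14 on day 4 and 2.90 on day 30, at least 2.81-fold, and the difference was 1.75 (95% interval 1.09 to 2.41; limma, adjusted p = 0.186). Of its 3 probe sets, 2 gave a positive difference.

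Cyp2c65, a close relative of Cyp2c55, was near the floor in all 10 controls, at 4.00 to 4.38. With phenobarbital it read 9.49, 9.89, 8.95, 8.49 and 8.63 on day 4 and 10.68, 10.45, 11.05, 10.72 and 10.61 on day 30. The treated arrays of the 2 days did not overlap. The change was at least 9.75-fold on day 4 and at least 29.9-fold on day 30, and the difference was 1.44 (95% interval 0.85 to 2.03; limma, adjusted p = 0.186). Its probe set is of a type that can read more than 1 transcript, so a share from a related Cyp2c gene cannot be told apart.

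Sult1d1, a sulfotransferase of catecholamines, was 2.20-fold higher on day 30 and had a day 4 change of 0.36 that was not called (difference 0.78, 95% interval 0.40 to 1.16). Its treated arrays were at 10.38 to 10.75 on day 4 and 10.66 to 11.23 on day 30, and its controls were at 9.91 to 10.50 on day 4 and 9.49 to 10.09 on day 30. On day 30 the treated range lay higher and the control range lower than on day 4. Alas1, which makes the first precursor of heme and sets the pace of its synthesis, was 3.02-fold higher on day 30, and its day 4 change of 0.67 was not called (difference 0.93, −0.07 to 1.92). It was the only one of 11 heme genes called on either day.

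Cyp2b9 and Cyp2b13, P450s normally expressed more in female mice, were called higher on day 30 alone. Cyp2b9 read 7.86, 5.73, 9.18, 8.43 and 7.39 in day 4 controls and 5.37, 6.35, 5.51, 5.52 and 6.09 in day 30 controls. With phenobarbital it read 8.46, 7.85, 8.58, 9.52 and 9.81 on day 4 and 10.14, 10.19, 8.25, 8.90 and 8.40 on day 30. The treated arrays overlapped between days, and the controls were lower on day 30, when 2 of the 5 were above background. The change was 1.13 on day 4, not called, and 10.6-fold on day 30, with a difference of 2.28 (SE 0.77; limma, adjusted p = 0.621) that was 2.90 without the 2 acute phase controls.

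For Cyp2b13 the controls were at or below background on both days, at 5.25 to 5.75 and 5.13 to 5.47, and the treated arrays ran from 5.57 to 8.15 on day 4 and from 7.04 to 9.90 on day 30. The day 30 change was at least 6.52-fold and the difference 1.87 (95% interval 0.40 to 3.34). Of the 19 measured female-biased genes, 1 was called higher on day 4 (2.61% over all genes) and 3 on day 30 (1.11%), with a median difference of 0.05. Cyp2b9 and Cyp2b13 are also counted among the Cyp2b, Cyp2c and Cyp3a genes.

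Meg3, an imprinted long noncoding RNA in the list of other CAR and PXR responsive genes, was at 8.18, 8.29, 6.87, 8.26 and 8.33 in day 4 controls and 8.27, 7.26, 8.29, 7.28 and 7.64 with phenobarbital. On day 30 it was at 8.36, 8.69, 9.21, 7.40 and 9.21 in controls and 10.06, 9.72, 10.39, 11.20 and 9.44 with phenobarbital. The day 30 treated arrays lay above all the other 15. The change was −0.24 on day 4, not called, and 3.01-fold on day 30 (limma, adjusted p = 0.0383). The day 30 call was lost in 10 of the 34 alternatives (limma, adjusted p up to 0.194). The difference was 1.83 (95% interval 0.70 to 2.96; limma, adjusted p = 0.576). The 11 probe sets of Meg3 gave the same sign as the one used in 10 cases on day 30 and 7 on day 4. The one used is of a type that can read more than 1 transcript.

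Orm3, an acute phase glycoprotein, was at least 5.74-fold higher on day 30. Its day 4 change of 0.04 rests on controls that read 9.11 and 9.79 in arrays 1 and 2 and 5.52 to 6.56 in the other 3. Its difference of 3.34 was 1.98 without those 2 arrays, and was not called in either fit. S100a8, a calcium-binding protein abundant in neutrophils, was at least 9.92-fold higher on day 30, with a difference of 1.71 (95% interval −0.94 to 4.35) that was 0.73 without the 2 acute phase controls. Its day 30 change was not called without the adipocyte array (3.77) or without day 30 phenobarbital array 5 (3.56). Of the 8 measured neutrophil and myeloid markers, S100a8 was the only one called on either day.

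**Figure D3:**
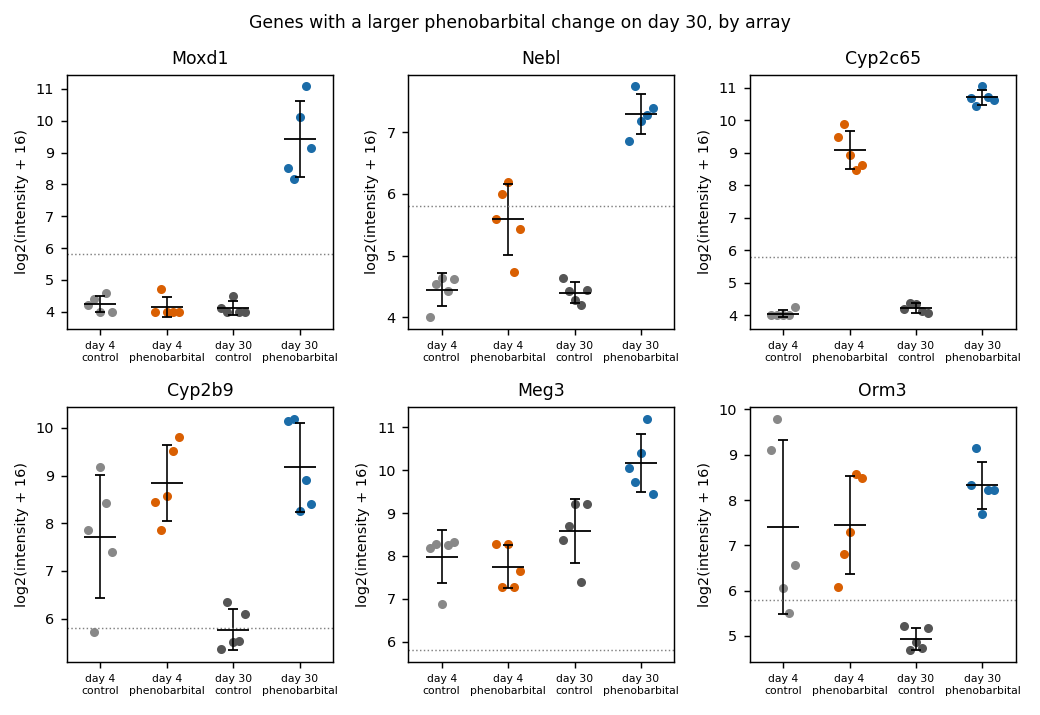
Level of 6 genes with a larger phenobarbital change on day 30 in each array (y axis, log2 of intensity plus 16) for the 4 groups (x axis); points are single arrays, lines and bars are the mean ± SD of 5 arrays, and the dotted line is the background level of 5.80. Moxd1 was above background in the day 30 phenobarbital arrays only, at 8.18 to 11.09, whereas the day 30 controls of Cyp2b9 and Orm3 were low, at 5.37 to 6.35 and 4.69 to 5.22.

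Negative differences with the lowest p came from genes of several kinds, and none was called. Fbxw9, an F-box protein of a ubiquitin ligase, was 2.97-fold higher on day 4 and its day 30 change of 0.24 was not called; its controls were at 6.38 to 7.68 on day 4 and 7.77 to 8.30 on day 30. Its difference was −1.33 (95% interval −1.90 to −0.77; limma, adjusted p = 0.196). Col4a1, a basement membrane collagen, was 1.36-fold higher on day 4 and had an uncalled change of −0.23 on day 30, a difference of −0.67 (−0.94 to −0.40).

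Other such genes were lower on day 30 alone. Etnppl, which breaks down phosphoethanolamine, was 2.11-fold lower on day 30, at 10.90, 10.81, 10.37, 10.07 and 10.34 against 11.12, 11.98, 11.65, 11.70 and 11.41 in controls. Its uncalled day 4 change was 0.23 and its difference −1.30 (95% interval −1.90 to −0.71). Serinc2, of a family that carries serine into membrane lipids, was 1.87-fold lower on day 30, with a day 4 change of 0.04 and a difference of −0.94. Chdh, choline dehydrogenase, was 1.21-fold lower on day 30, with a difference of −0.33.

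Genes of cell division were among those called higher on day 4. Of 52 measured genes of the G2 and M phases, 15 were called higher on day 4 and 0 lower, and none was called on day 30. These calls compare with 2.61% of all genes called higher on day 4. Their median change was 0.47 on day 4 and 0.11 on day 30, and 47 of the 52 had a negative difference, against 51.4% of all genes. Promoters of such genes commonly hold a CHR element, TTTGAA, bound by the MuvB complexes, and CCAAT boxes, bound by NF-Y. The promoters of 4 members are shown because these 2 motifs recur in them. Each is 200 bases ending just before the transcription start site, written 5′ to 3′ on the strand of the gene (RefSeq, build GRCm38.p6), with TTTGAA and CCAAT on either strand in capitals (CCAAT on the other strand reads ATTGG).
Ccnb2, chr9:70421555-70421754, minus strand: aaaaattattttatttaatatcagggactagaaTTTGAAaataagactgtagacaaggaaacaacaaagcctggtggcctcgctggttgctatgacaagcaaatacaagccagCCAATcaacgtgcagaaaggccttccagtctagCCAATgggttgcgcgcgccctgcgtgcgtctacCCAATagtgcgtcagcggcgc
Cdk1, chr10:69352913-69353112, minus strand: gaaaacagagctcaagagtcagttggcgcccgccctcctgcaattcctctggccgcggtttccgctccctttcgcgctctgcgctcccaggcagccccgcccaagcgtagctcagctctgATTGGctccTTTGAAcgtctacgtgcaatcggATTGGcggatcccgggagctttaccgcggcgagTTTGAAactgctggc
Cdc20, chr4:118437344-118437543, minus strand: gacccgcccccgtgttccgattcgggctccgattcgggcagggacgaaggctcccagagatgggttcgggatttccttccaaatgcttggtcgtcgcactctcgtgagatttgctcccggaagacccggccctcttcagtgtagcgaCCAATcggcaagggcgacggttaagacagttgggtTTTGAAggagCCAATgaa
Mki67, chr7:135716380-135716579, minus strand: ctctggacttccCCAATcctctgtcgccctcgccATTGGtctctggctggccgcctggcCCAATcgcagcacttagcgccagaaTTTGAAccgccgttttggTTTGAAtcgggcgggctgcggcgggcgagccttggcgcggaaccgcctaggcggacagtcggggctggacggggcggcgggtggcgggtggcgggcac

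The search ran over 250 bases before to 50 after the start, on both strands, and no CCAAT overlaps a TTTGAA in the stretches printed. Promoters of the list on a single chromosome were left out before counting, whereas the counts over all promoters keep that chromosome. Of 52 genes in the list, 43 were then matched to a promoter of the RefSeq table, with 47 promoters in all. A gene not matched here is therefore not shown to be absent from that table. TTTGAA was in 31 of them (66.0%) and CCAAT in 36 (76.6%), against 17.9% and 37.4% of all 32851 promoters in the table. Both motifs were in 28 (59.6%), against 6.95%. Of the 15 genes called on day 4, 11 were matched, and 9 held TTTGAA. Of the 32 matched genes that were not called, 20 held it. Among the called genes, Birc5 held neither motif, Nek2 held no TTTGAA and Anln held no CCAAT. These are matches of letters and not evidence of binding.

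Ccnb2, cyclin B2, a partner of the mitotic kinase Cdk1, read 6.06, 6.08, 7.38, 5.26 and 6.02 with phenobarbital on day 4 and 4.28, 5.22, 4.00, 4.00 and 4.00 in controls. On day 30 it read 4.00, 4.23, 4.00, 4.16 and 5.78 with phenobarbital and 4.00, 4.00, 4.06, 4.39 and 4.43 in controls. Treated arrays were higher on day 4 without overlap, and on day 30 only array 5 stood above the controls. The day 4 change was 1.86, at least 1.28-fold, the day 30 change was 0.26, not called, and the difference was −1.60 (SE 0.51; limma, adjusted p = 0.621).

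Birc5, survivin, a member of the chromosomal passenger complex, had the largest day 4 change of the list, 1.998, at least 1.32-fold. Its treated arrays read 6.00, 6.28, 7.04, 5.60 and 6.13 on day 4 and 4.00, 4.00, 4.80, 4.00 and 5.76 on day 30. All day 30 controls were at 4.00 to 4.65. The day 30 change was 0.38, not called, and the difference was −1.62 (SE 0.46; limma, adjusted p = 0.521).

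Cdc20, an activator of the anaphase-promoting complex, was above background in most arrays. It read 6.48, 6.53, 6.62, 5.82 and 5.72 in day 4 controls, 7.35, 7.48, 8.76, 7.11 and 7.06 with phenobarbital on day 4, 5.86, 6.12, 6.50, 6.54 and 5.55 in day 30 controls, and 6.56, 6.08, 5.93, 6.26 and 6.56 with phenobarbital on day 30. The groups were apart on day 4 and overlapped on day 30. It was 2.49-fold higher on day 4 and its day 30 change of 0.16 was not called (difference −1.15, 95% interval −2.01 to −0.30).

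Cdk1, the kinase that starts mitosis, was 2.36-fold higher on day 4, at 6.72 to 7.60 against 5.15 to 6.84 in controls, with an uncalled day 30 change of 0.16 (difference −1.08, −2.06 to −0.10). Nek2, a kinase of centrosome separation, was 1.67-fold higher on day 4, at 6.16 to 6.76 against 5.45 to 6.04, with an uncalled day 30 change of 0.08 (difference −0.66, −1.03 to −0.30). Of the 4 probe sets of Nek2, 2 gave the same sign as the one used on day 4, 2 on day 30 and 4 in the difference. Mki67, the proliferation marker Ki-67, was at least 1.34-fold higher on day 4, and its uncalled day 30 change was 0.58, so that its difference of −0.73 had an interval across 0 (−1.76 to 0.31). Its day 30 treated arrays read 4.16, 4.08, 4.95, 4.56 and 6.26, array 5 again being the high one.

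As a list, none of the 52 differences was called. At an unadjusted p under 0.05, 16 of the 52 differences were negative, against 4.00% of all genes, and 13 of the 15 genes called on day 4 were among them. Those 15 were picked for a high day 4 change, which the difference subtracts, so the 4.00% is not a like base for the 13. Of all 613 genes called on day 4 alone, 228 (37.2%) had a difference at such a p in either direction. The other members of the list called on day 4 were Ect2, Kif20a, Plk1, Stmn1, Cdca8, Cenpf, Aurkb, Anln and Pbk. The levels are low: 26 of the 52 genes had a group mean above background, and 5 of the 15 called genes were below background in every group, so they have no fold.

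The mean level of the 52 genes per array was 5.76, 5.94, 6.34, 5.52 and 5.83 with phenobarbital on day 4, against 5.28, 5.55, 5.26, 5.17 and 5.29 in controls. On day 30 it was 5.17, 5.15, 5.32, 5.14 and 5.75 against 5.24, 5.23, 5.30, 5.16 and 5.14. On day 4 the lowest treated array was slightly below the highest control, and on day 30 phenobarbital arrays 1, 2 and 4 did not exceed the highest control, array 3 was just above it and array 5 well above it. Without that array, 18 of the 52 were called on day 4 and the median difference was −0.54, with 22 negative differences at an unadjusted p under 0.05. The number called on day 4 depended on single arrays: it was 7 without day 4 phenobarbital array 3, the highest, or without day 4 control array 4, and 21 without day 4 phenobarbital array 4. The median difference stayed between −0.34 and −0.55 with any single array left out, and no gene of the list was called higher on day 30 in those fits. In 4 of the 20 fits, 1 gene of the list was called lower on day 30: without day 4 control array 1, day 4 phenobarbital array 5, day 30 control array 4 or day 30 phenobarbital array 5. The median day 30 minus day 4 value of the list was −0.44 in treated livers and −0.08 in controls.

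**Figure D4:**
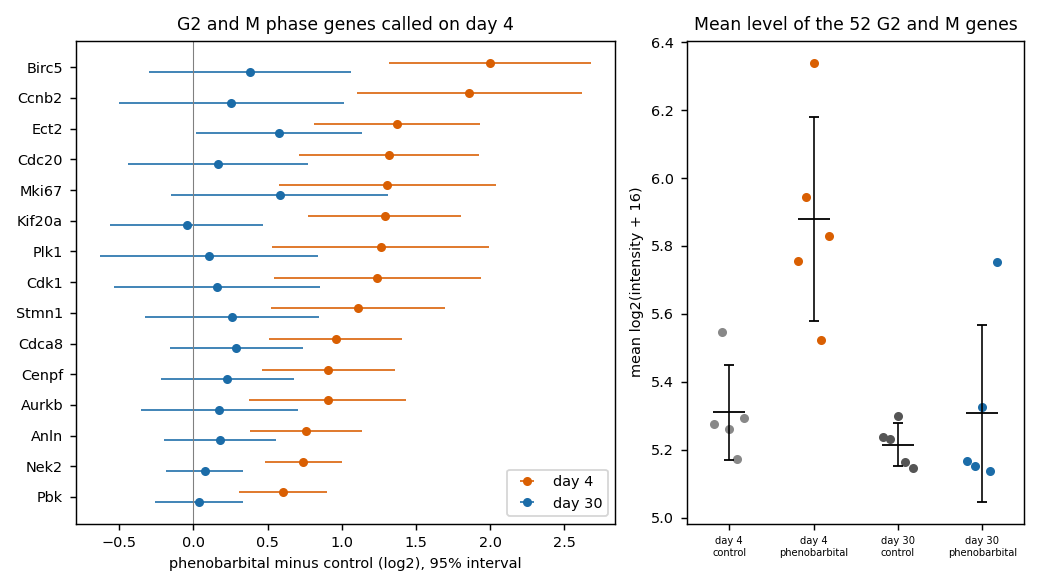
Left, phenobarbital minus control change (x axis, log2) with its 95% interval for the 15 G2 and M phase genes called on day 4, on day 4 (orange) and on day 30 (blue). Right, mean level of the 52 measured genes in each array (y axis, log2 of intensity plus 16) with the mean ± SD of 5 arrays per group; day 30 phenobarbital array 5 reads 5.75 and the other 4 read 5.14 to 5.32.

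The S phase genes moved less. Of 40 measured, 4 were called higher on day 4 and 1 on day 30 (2.61% and 1.11% over all genes). Their median change was 0.26 on day 4 and 0.11 on day 30. The median difference was −0.19, with 29 negative (51.4% over all genes) and 4 of them at an unadjusted p under 0.05. Without day 30 phenobarbital array 5 there were 5 called higher on day 4 and 33 negative differences. Without the 2 acute phase controls there were 5 and 27. Hells, a chromatin remodeller of replicating cells, was 2.05-fold higher on day 4 and its day 30 change of 0.57 was not called (difference −0.46, 95% interval −0.96 to 0.04). Uhrf1, which carries DNA methylation through replication, was called on day 4 (change 1.01) with all group means below background. E2f2, a transcription factor of S phase entry, was 1.75-fold higher on day 4, a change not called without the 2 acute phase controls. Chaf1b, a subunit of the chromatin assembly factor, was the member called on both days, 1.69-fold and at least 1.23-fold (difference −0.06, −0.46 to 0.34).

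Of 20 p53 target genes, 2 were called higher on each day, against 2.61% of all genes on day 4 and 1.11% on day 30. The day 4 count was 1 without the 2 acute phase controls. The day 30 count was 1 without the adipocyte array or without day 30 phenobarbital array 5. Gadd45a, a stress-induced growth arrest gene, was 2.53-fold higher on day 4 and 1.98-fold on day 30. Gadd45a is also counted among the other CAR and PXR responsive genes above. Its relative Gadd45b, known to be induced through CAR, was 5.01-fold higher on day 4, and its day 30 change of 1.63 was not called (difference −0.69, 95% interval −2.15 to 0.76). Without the adipocyte array its day 30 change was 2.15 and was called.

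Among other liver functions, the fatty acid oxidation and PPAR-alpha target genes had differences whose sign count depended on the control arrays. Of 32 measured, 0 were called on day 4 and 2 were called lower on day 30, Hadhb and Acadvl, both enzymes of mitochondrial beta-oxidation. Hadhb was 1.23-fold lower on day 30, at 11.23, 11.24, 11.33, 11.38 and 11.44 against 11.56, 11.59, 11.65, 11.55 and 11.79 in controls, with no overlap. Acadvl was 1.16-fold lower. The list's median difference was −0.17, with 27 negative (51.4% over all genes), 8 of them at an unadjusted p under 0.05 (4.00% over all genes), and was −0.07 with median-centred arrays. Without the 2 acute phase controls it was −0.09, with 22 negative and 4 at an unadjusted p under 0.05, and without all 3 control arrays that stood apart it was −0.04, with 18 negative and 3. Without day 30 phenobarbital array 5 the number at an unadjusted p under 0.05 was 10, and without the adipocyte array it was 5. Cpt2, carnitine palmitoyltransferase of the inner membrane, had uncalled changes of 0.24 and −0.30 and a difference of −0.54 (95% interval −0.82 to −0.26; limma, adjusted p = 0.521).

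Cholesterol biosynthesis genes had positive differences in 19 of 20, against 48.6% of all genes, with a median of 0.26 against −0.01. None of them reached an unadjusted p under 0.05, 1 was called lower on day 4 and 0 on day 30. Without the 2 acute phase controls, 1 positive difference had an unadjusted p under 0.05. Acute phase proteins had positive differences in 31 of 32, against the same 48.6%, with a median of 0.37, and 1 was called higher and 2 lower on day 4 and 2 higher on day 30. Without the 2 day 4 control arrays high in these genes, the median was 0.07, with 21 positive and 11 negative. In that fit 2 were called higher and 2 lower on day 4, and 5 higher on day 30.

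The interferon responsive genes had a median change of 0.80 on day 4 and 0.42 on day 30, and 1 of 25 was called, on day 4. That gene, Usp18, which removes ISG15 from proteins, was 3.43-fold higher, at 8.21, 10.82, 8.73, 7.62 and 9.25 against 6.80, 7.24, 7.04, 6.68 and 7.96 in controls. On day 30 it read 6.89, 6.14, 6.86, 6.68 and 8.38 with phenobarbital and 6.33 to 6.60 in controls. The day 4 change of Usp18 was 1.69 and not called without the 2 acute phase controls. On day 30, phenobarbital array 5 was again the high one, and it was at 9.01 for the whole list against 7.43 to 7.72 in the rest of its group. Without it the day 30 median was 0.13 and the median difference −0.46 in place of −0.15, with 24 of 25 negative, against 17 of 25 with it. In that fit 3 genes of the list were called higher on day 4.

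Of 19 genes of the growth hormone and insulin-like growth factor axis, 4 were called lower on day 4 (1.84% of all genes) and 1 on day 30 (0.648%), with a median difference of −0.01. Without the 2 acute phase controls 1 was called lower on day 4 and 3 on day 30, without all 3 control arrays 1 on each day, and without day 30 phenobarbital array 5, 4 and 2. Markers of other liver cells were checked beside these lists. None of 14 Kupffer cell and macrophage markers was called on either day, and their mean level per array was 8.81 to 9.60 in day 4 controls, 8.88 to 9.62 with phenobarbital, 8.82 to 9.28 in day 30 controls and 9.09 to 9.69 with phenobarbital. Among stellate cell and matrix genes, 14 of 16 differences were negative (51.4% over all genes), with a median of −0.24, and 1 gene was called lower on each day. Lrat, the retinol esterifying enzyme of stellate cells, was 1.95-fold lower on day 30. Of 10 T and NK cell markers, 2 were called higher on day 30, Ccl5 and Nkg7, both with every group mean below background. Of 10 biliary and progenitor markers, 5 had a group mean above background and 1, Sox9, was called, on day 4 alone. Sox9 was 2.49-fold higher on day 4, and its day 30 change of 0.72 was not called. Of its 3 probe sets, counting the one used, 2 gave the sign of that one on day 4 and 1 on day 30. The part of these cells in the changes above was not tested.

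**Figure D5:**
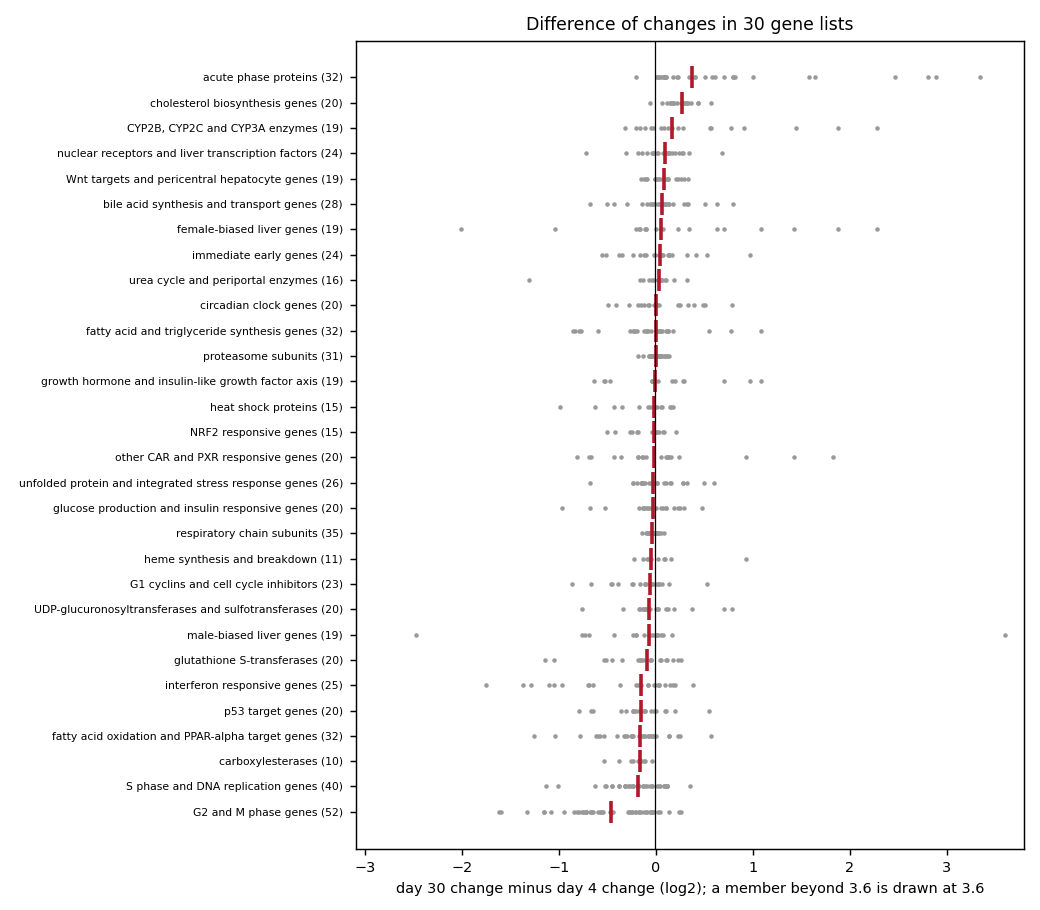
Difference of changes (day 30 change minus day 4 change, log2) for every measured member of 30 gene lists (grey points), with the list's median as a red bar and the number of measured members in parentheses; 1 value beyond 3.6 is drawn at 3.6. The G2 and M phase genes have the lowest median, −0.46, and the acute phase proteins the highest, 0.37, which was 0.07 without day 4 control arrays 1 and 2.

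The treated livers were also compared directly between days, as were the controls. With phenobarbital, 12 genes were called higher on day 30 than on day 4 (0.0688%) and 11 lower (0.0631%). In controls, 0 were called higher (0%) and 2 lower (0.0115%) by limma, with 1573 genes in both directions together at an unadjusted p under 0.05. The count of 23 for treated livers ranged from 3 without day 30 phenobarbital array 4 to 58 without day 30 phenobarbital array 5. The genes below that no rule had picked are named after their values were seen. The higher genes in treated livers included Moxd1 (5.27), Meg3 (2.42), Nebl (1.70) and Cyp2c65 (1.61), whose control values changed by −0.12, 0.59, −0.05 and 0.17. They also included Onecut1, a liver transcription factor, at 1.45, with an uncalled 1.25 in controls. The lower genes included Birc5, Spc25, Pbk and Nek2 of the G2 and M phase list, at −1.70, −1.08, −0.74 and −0.64, with uncalled control values of −0.08, −0.33, −0.17 and 0.02. Col4a1 and Serinc2 were lower by −0.57 and −0.90, with 0.10 and 0.04 in controls. Of the genes lower in controls, 1 is Acnat2, an acyltransferase of peroxisomes (−2.24, with an uncalled −0.64 in treated livers), and the other is known by a clone name only. Mice of the 2 days also differ in age at collection by the length of feeding, which these comparisons do not separate from time on the diet.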

How the data were processed

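Liver RNA was hybridised to Affymetrix mouse 430 2.0 arrays, 1 per sample. The deposited values are linear intensity per probe set, with 19.5% below 0 in the 20 arrays and no common scale. The software behind them is not given in the labels. Of 45101 probe sets, 34958 carried 1 gene symbol in the platform annotation, 932 several and 9211 none; a gene was read by its probe set of highest mean. Arrays were quantile normalized together, floored at 0 and taken as log2(value + 16), and 761 genes with constant values were dropped. Fold changes on this scale understate those of low genes. limma 3.58.1 (R 4.3.3; lmFit, eBayes with intensity trend, two-sided, 16 residual degrees of freedom) fitted 1 mean per group to 17433 genes. The scripts were tested on simulated data. The number of arrays limits the precision.

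Members and gene lists were chosen with earlier results of these data known. Named genes were, for the difference, those called and then those of lowest unadjusted p (10 a direction); for genes called on both days, the 8 largest mean changes a direction; and up to 4 called members of each list, as well as members of the induction and cell cycle lists. Genes known by clone names were not named. Lists are described by counts and medians, to be read against the values over all genes. Alternatives changed the scaling, pseudocount, probe set choice, filter, arrays fitted, weights and replicate block, or left out 1 array. Leaving out the 4 arrays that stood apart was added after seeing the data.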

Additional observations from a re-analysis of the deposited data

Results flagged for a closer look

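Within groups of 5 arrays, the highest or lowest array was set against the nearest other one. Over 265 groups (34 genes and 41 lists, leaving out 35 with every array below background), 16 had an array whose gap exceeded the 95% critical value of Dixon's test (0.71 of the range), and chance alone flags about 1 group in 20. Among genes, Gstm2 was at 11.17 in day 4 control array 3 against 9.81 to 9.97 in the others, and Meg3 was at 6.87 in the same array against 8.18 to 8.33. Cdc20 was at 8.76 in day 4 phenobarbital array 3 against 7.06 to 7.48. Ces2a was at 13.18 in day 30 phenobarbital array 4 against 13.38 to 13.41, and S100a8 was at 7.41 in day 30 phenobarbital array 1 against 9.21 to 9.76.

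Mean levels of lists stood apart as follows. In day 4 control array 1, exocrine pancreas and gut markers were at 11.69 against 6.34 to 7.42. In day 4 phenobarbital array 1, the same markers were at 7.25 against 6.13 to 6.26, and biliary and progenitor markers were at 6.90 against 5.46 to 5.75. Proteasome subunits were at 11.11 in day 4 phenobarbital array 2 against 10.94 to 10.97. B and plasma cell markers were at 5.65 in day 4 phenobarbital array 5 against 6.11 to 6.23. Growth hormone axis genes were at 9.16 in day 30 control array 2 against 9.33 to 9.38. In day 30 control array 5, adipocyte markers were at 8.83 against 6.01 to 6.18, fatty acid and triglyceride synthesis genes at 10.27 against 9.74 to 9.87, and pancreas and gut markers at 7.42 against 5.93 to 6.28. Pancreas and gut markers were also at 6.42 in day 30 phenobarbital array 2 against 6.03 to 6.11. Interferon responsive genes were at 9.01 in day 30 phenobarbital array 5 against 7.43 to 7.72. The part of other tissue in these arrays was not tested.

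Moxd1 is the gene whose change differed between days by the test of the difference, at 5.39.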

How the results depend on the processing

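The difference called 1 gene, and 2 with a pseudocount of 64, with probe sets of largest variance, and with all 38 arrays, where Moxd1 was not among the 2. Leaving out 1 array gave 1 to 4. The 776 genes of day 4 became 247 as deposited, 461 median centred, 116 with all 38 arrays, 502 without the acute phase controls and 515 without all 3 control arrays that stood apart, and 426 to 904 with 1 array left out. On day 30, 194 genes were higher and 113 lower; the higher ones became 117 as deposited, 387 median centred, 70 with all 38 arrays and 118 to 216 with 1 left out, and the lower ones 25, 51, 17 and 59 to 127, and 178 with array weights. Treated livers differed between days in 23 genes, and in 7 as deposited, 14 with a pseudocount of 4, 7 with all 38 arrays, 41 with array weights, 38 without the acute phase controls, 15 without the adipocyte array, 58 without day 30 phenobarbital array 5, and 3 to 58 with 1 left out. Controls differed in 2, and in 4 with probe sets of largest variance, 0 without all 3 control arrays (limma; 1076 at an unadjusted p under 0.05), and 2 to 5 with 1 left out. The causes were not tested.

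With the replicate number as a block the counts were 1 for the difference, 605 for day 4, 224 for day 30, 9 for treated livers and 2 for controls. Arrays of the same number did not deviate together across genes (mean correlation −0.012 to 0.005). This gave no sign that the numbers pair them, but a pairing that acts on few genes would not show in it.

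Of 200 differences of named genes under the planned settings, 195 kept their sign and side of the threshold, as did 397 of 400 with 1 array left out; of 1001 day 4 changes 808 did, and of 676 day 30 changes 574 did. Signs turned with the probe set of largest variance in the differences of Nup54 (−0.78) and Actl6a (−0.11), the day 4 changes of Nup54 (0.82), Srxn1 (−0.49), Mdm2 (−0.093) and Dcn (0.013), and the day 30 change of Psmd13 (−0.074). With all 38 arrays, 4 G2 and M phase genes were called on day 4. Genes near background carry the least signal.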

Other observations

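Moxd1 was also present in livers of the series that had no phenobarbital. On the scale of all 38 arrays it read 9.74, 6.55 and 4.00 in the 3 controls of the 30-day conazole experiment, 6.94, 4.00 and 10.86 with tridimefon for 30 days, and 4.00 in all 3 livers with propiconazole for 30 days. In the 9 day 4 arrays of that experiment it was between 4.00 and 5.94. So 2 of the 3 untreated 30-day livers of that experiment were above the background level, and none of the 5 controls of the 30-day phenobarbital groups was.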
